A study of Homo sapiens with 12 samples.

Results

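Mitochondrial ribosomal proteins are the protein parts of the ribosome that works inside mitochondria. Their genes were taken here as those named MRPL or MRPS followed by a number, without pseudogenes, and 75 of the 19775 genes on the array with a probe set of their own met this rule. The probe set of each gene was chosen by its mean log2 level over the 12 arrays, taking the brightest, so the levels describe that choice and are not tested. No difference between groups entered the choice of probe set, but the members as a set were chosen with earlier results of these data known. All 75 had a mean level above the filter value of 5.46 log2 and entered the comparison of 13225 genes. By symbol, 48 belong to the large subunit (MRPL) and 27 to the small subunit (MRPS). MRPS18A and MRPS30 carry small-subunit names but sit in the large subunit of the solved structures.

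The study asked how loss of YAP and TAZ changes gene expression in MDA-MB-231, an established human triple-negative breast cancer cell line. YAP (gene YAP1) and TAZ (gene WWTR1) are transcriptional coactivators of the Hippo pathway that reach DNA mainly through TEAD factors. The 3 groups were cells given siYAP/TAZ mix 2, cells given siYAP/TAZ mix 1 and cells given a control siRNA, with 4 biological replicates (A to D) each. Every culture received its siRNA at 33 nM on day 2, fresh medium on day 3 and was harvested on day 4 for total RNA, which was read on Affymetrix U133 Plus 2.0 arrays. The knockdown is transient and is not a deletion, each mix was compared with the same 4 control arrays, and the siRNA sequences were not used here.

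The mitochondrial ribosome descends from a bacterial one and makes the few proteins that mitochondrial DNA encodes, which are core parts of the respiratory chain and the ATP synthase. Its ribosomal RNAs come from mitochondrial DNA, whereas all of its proteins are encoded in the nucleus, made in the cytosol and imported. Many of these proteins have bacterial counterparts, and others exist only in mitochondria. The large subunit forms the peptide bond and holds the exit tunnel, and the small subunit reads the mRNA.

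YAP1 was at 8.09 ± 0.10 log2 with mix 2, 8.15 ± 0.36 with mix 1 and 11.16 ± 0.10 with control siRNA (SD, n = 4 each), which left 11.9% and 12.4% of the control level. WWTR1 was left at 18.3% with mix 2 and 19.8% with mix 1. All 4 markers of the line were high in every group. VIM, a mesenchymal intermediate filament, averaged 14.37, 14.41 and 14.29 log2 in mix 2, mix 1 and control, and KRT18, an epithelial keratin, 12.91, 12.98 and 12.88. The keratin KRT19 was higher with both mixes (12.47, 12.99 and 11.64, adjusted p = 2.63e-08 and 1.56e-10), and the adhesion receptor CD44 was lower (11.93, 11.96 and 12.22, adjusted p = 0.00498 and 0.0107). The epithelial cadherin CDH1 and the progesterone receptor PGR lay below the filter value, and the oestrogen receptor ESR1 averaged 6.19, 6.26 and 6.31. Of 6 markers of other cells, the leukocyte gene PTPRC and the endothelial gene CDH5 lay below the filter value, and the T-cell gene CD3E lay above it at a like level in every group (6.07, 6.08 and 6.17). The endothelial PECAM1 (7.88, 8.62 and 6.54) and the fibroblast genes COL1A1 (8.52, 9.34 and 7.04) and PDGFRB (6.78, 6.57 and 5.90) were higher with both mixes, and the part of these markers in the results below was not tested. Array medians lay between 5.69 and 5.78 log2. The log2 difference between the 3′ and 5′ control probe sets, a measure of RNA quality, averaged 0.38 with mix 2, 0.43 with mix 1 and 0.39 with control for GAPDH, and 1.53, 1.92 and 1.70 for ACTB. Its part in the results was not tested, and 4 arrays against 4 allow an exact permutation p no smaller than 0.0286.

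Most mitochondrial ribosomal protein mRNAs were lower after YAP/TAZ knockdown. With mix 2 against control, 58 of the 75 fell and 5 rose (limma, Benjamini-Hochberg adjusted p below 0.05), where 31.9% of all genes tested fell and 36.7% rose. With mix 1 against control, 67 fell and 3 rose, where 32.3% of all genes tested fell and 34.8% rose. The median log2 difference of the members was -0.50 with mix 2 and -0.56 with mix 1, against 0.03 and 0.01 over all genes tested. Falls of at least 2-fold were fewer, with 8 members under mix 2 and 11 under mix 1, where the shares of all genes tested were 9.35% and 8.28%. No member rose by 2-fold or more in these comparisons, where 9.06% of all genes tested did with mix 2 and 8.09% with mix 1. These are differences between whole cultures, in which fewer cells with a high level and less RNA per cell cannot be told apart.

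In the mean of both mixes against control, 63 members fell, 4 rose and 8 did not pass, where 33.2% of all genes tested fell and 36.4% rose. By at least 2-fold, 11 members fell and none rose, where 7.91% of all genes tested fell and 8.03% rose. The 8 that did not pass were MRPL34, MRPL40, MRPL42, MRPL43, MRPL45, MRPS10, MRPS18A and MRPS33. Single members ran from a fall of 1.46 on the log2 scale (MRPL3, mix 2) to a rise of 0.79 (MRPL36, mix 2).

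**Figure D1:**
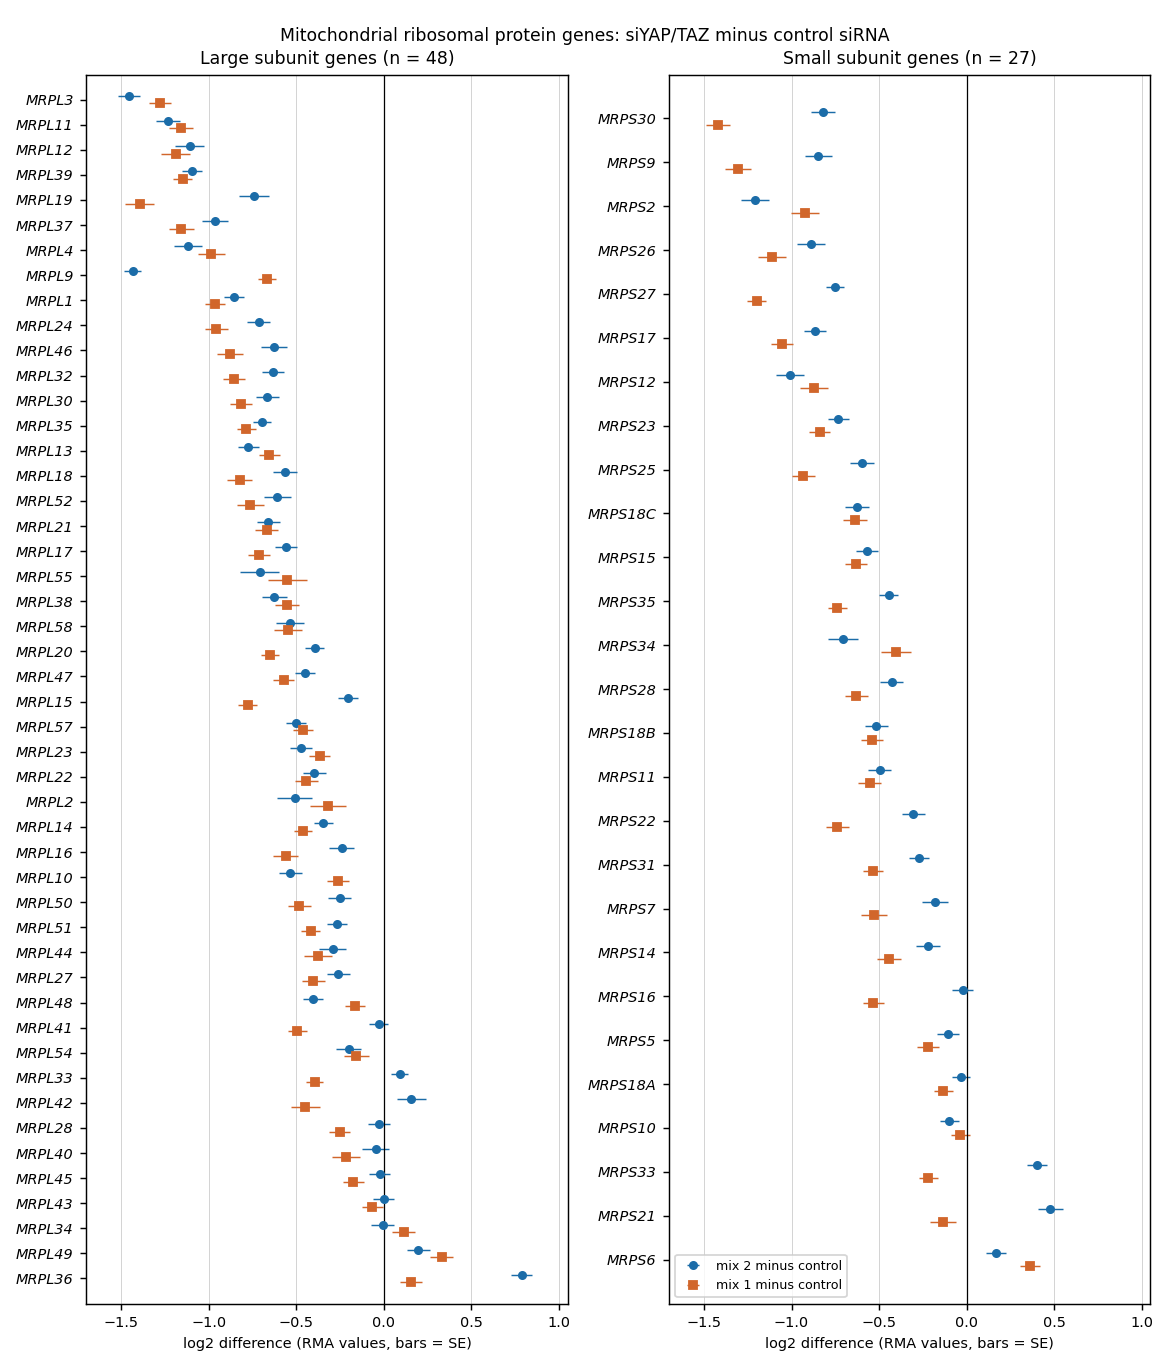
Log2 difference from control of each of the 48 large and 27 small subunit genes with mix 2 (circles) and mix 1 (squares), with SE bars and genes ordered by the mean of both. Most points lie left of 0, from MRPL3 at -1.46 with mix 2 to MRPL36 at 0.79 with mix 2.

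Array by array, the median deviation of the 75 members from the control mean was -0.47, -0.47, -0.42 and -0.63 log2 with mix 2 (A to D). With mix 1 it was -0.55, -0.67, -0.56 and -0.55, and with control siRNA -0.03, 0.05, 0.01 and -0.03. Each knockdown array thus had a lower members' median than each control array. Mix 2 replicate D held the lowest of the 4 mix 2 values for 64 of the 75 members, and mix 1 replicate B the lowest mix 1 value for 41. Without mix 2 replicate D, 56 members fell and 5 rose with mix 2, where 31.6% of all genes tested fell and 37.3% rose. Without mix 2 replicate B, 3 rose with mix 2, where 35.1% of all genes tested rose. The array medians of all probe sets were 5.73 for mix 2 replicate D and 5.73, 5.74 and 5.74 for mix 2 A to C. The median level of all genes tested was 8.25 log2 for mix 2 replicate D and 8.39, 8.35 and 8.38 for mix 2 A to C. How many of all genes were lowest on replicate D was not counted, and the part of this array in these values was not tested.

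Against control, the large and small subunits had medians that lay close together. Of the 48 large subunit genes, 38 fell and 2 rose with mix 2, and 43 fell and 2 rose with mix 1. Of the 27 small subunit genes, 20 fell and 3 rose with mix 2, and 24 fell and 1 rose with mix 1. Over all genes tested, 31.9% fell and 36.7% rose with mix 2, and 32.3% fell and 34.8% rose with mix 1. The median deviation per array averaged -0.50 ± 0.10 for large and -0.47 ± 0.04 for small subunit genes with mix 2 (SD, n = 4 arrays). With mix 1 it averaged -0.56 ± 0.07 for large and -0.61 ± 0.05 for small subunit genes. In both mixes the ranges of the 4 arrays overlapped between the subunits. Placing MRPS18A and MRPS30 in the large subunit gave 39 of 50 large and 19 of 25 small subunit genes that fell with mix 2, and 45 of 50 and 22 of 25 with mix 1.

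**Figure D2:**
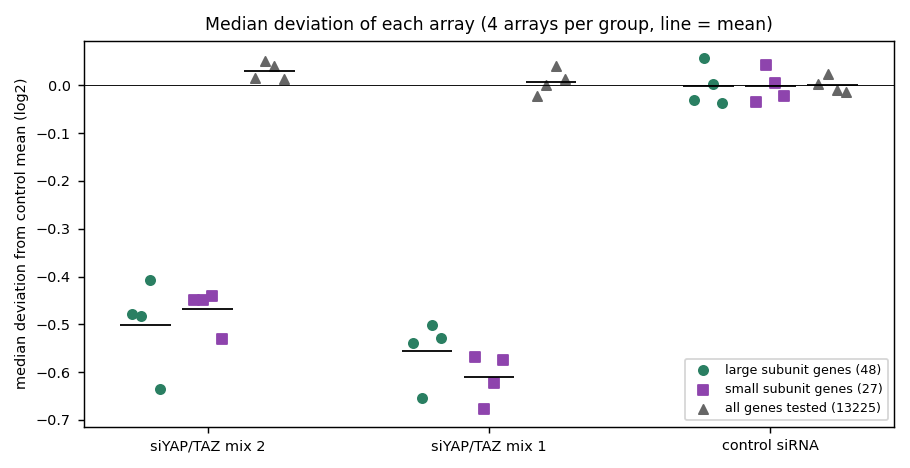
Median log2 deviation from the control mean on each array for large subunit genes, small subunit genes and all genes tested, in mix 2, mix 1 and control (4 arrays each, line at the mean). Large and small subunit points lie between -0.41 and -0.68 in the knockdown groups, while all genes tested stay near 0.

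By origin, the 30 large subunit genes with a bacterial counterpart had a median of -0.63 log2 in the mean of both mixes against control, and 28 of them fell. The 18 large subunit genes found only in mitochondria had a median of -0.34, and 13 of them fell. Of all genes tested, 33.2% fell in this comparison. In the small subunit by symbol the order was the other way, with -0.52 for the 17 genes with a bacterial counterpart and -0.68 for the 10 found only in mitochondria. The 17 include MRPS18A (-0.08) and the 10 include MRPS30 (-1.12), both large subunit proteins by structure. The split by origin was not repeated by structure. These medians are descriptions and the difference between the classes was not tested.

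The letters of the promoters of 3 members that fell and of the member that rose most are shown as examples. The 3 that fell were not picked by a fixed rule. Every printed window holds a match to a motif described further on, so these windows do not stand for all members. The windows are from RefSeq (GRCh38.p14) and run from 250 bases before the annotated start to 50 after it. They are chr3:131502922-131503221 (minus strand) for MRPL3, chr1:54199917-54200216 (plus strand) for MRPL37, chr2:105037819-105038118 (plus strand) for MRPS9 and chr5:1799788-1800087 (minus strand) for MRPL36, each written 5′ to 3′ on the gene's own strand. Capitals mark matches on either strand to the motifs described further on: ETS family, E-box, NRF1, YY1 and TEAD.
MRPL3: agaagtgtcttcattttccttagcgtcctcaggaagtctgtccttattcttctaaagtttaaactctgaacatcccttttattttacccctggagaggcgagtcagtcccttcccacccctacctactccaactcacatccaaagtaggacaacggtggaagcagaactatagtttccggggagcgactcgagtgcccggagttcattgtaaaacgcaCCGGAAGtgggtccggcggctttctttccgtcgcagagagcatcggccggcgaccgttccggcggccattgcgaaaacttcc
MRPL37: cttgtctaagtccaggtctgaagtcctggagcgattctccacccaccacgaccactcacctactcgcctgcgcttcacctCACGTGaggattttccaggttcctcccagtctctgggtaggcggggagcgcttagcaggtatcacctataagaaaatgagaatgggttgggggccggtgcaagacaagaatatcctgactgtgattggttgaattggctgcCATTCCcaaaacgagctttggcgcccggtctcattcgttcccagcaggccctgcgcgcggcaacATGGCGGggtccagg
MRPS9: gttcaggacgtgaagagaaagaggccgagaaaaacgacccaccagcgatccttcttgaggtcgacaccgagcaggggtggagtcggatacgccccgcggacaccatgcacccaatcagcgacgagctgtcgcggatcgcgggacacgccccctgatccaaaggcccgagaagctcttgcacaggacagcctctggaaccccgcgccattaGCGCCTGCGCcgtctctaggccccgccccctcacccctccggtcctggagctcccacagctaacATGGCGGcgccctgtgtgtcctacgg
MRPL36: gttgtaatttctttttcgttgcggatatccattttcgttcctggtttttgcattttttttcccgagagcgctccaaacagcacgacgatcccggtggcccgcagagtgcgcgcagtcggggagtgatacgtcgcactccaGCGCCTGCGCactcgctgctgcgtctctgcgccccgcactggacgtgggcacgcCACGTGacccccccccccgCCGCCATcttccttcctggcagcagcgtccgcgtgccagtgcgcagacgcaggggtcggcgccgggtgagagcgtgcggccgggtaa

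MRPL3, a large subunit protein with a bacterial counterpart that lies near the peptide-bond centre, had the lowest log2 difference of all members in the mean of both mixes. Its level was 10.90, 10.94, 10.89 and 10.83 log2 with mix 2 (A to D), 11.10, 10.92, 11.03 and 11.21 with mix 1, and 12.32, 12.34, 12.37 and 12.35 with control siRNA. All knockdown arrays lay more than 1 log2 unit below every control array. That left 36.5% of the control level with mix 2 (-1.46, SE 0.06, adjusted p = 3.13e-11) and 41.2% with mix 1 (-1.28, SE 0.06, adjusted p = 1.51e-10).

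MRPL11 and MRPL12 belong to the stalk of the large subunit, where translation factors dock, and MRPL12 is also known to bind the mitochondrial RNA polymerase. MRPL11 was at 9.11, 9.03, 9.20 and 8.90 log2 with mix 2, 9.18, 9.02, 9.15 and 9.19 with mix 1, and 10.26, 10.36, 10.32 and 10.23 with control siRNA. The knockdown arrays of MRPL11 were all far below its controls, by 1.23 with mix 2 (adjusted p = 6.13e-10) and 1.16 with mix 1 (adjusted p = 1.46e-09). MRPL12 was at 9.53, 9.41, 9.69 and 9.25 with mix 2, 9.37, 9.48, 9.43 and 9.28 with mix 1, and 10.56, 10.67, 10.56 and 10.53 with control siRNA. Mix 2 values of MRPL12 spread more than those of the other groups, yet none reached the controls, and it fell by 1.11 and 1.19 on the log2 scale with mix 2 and mix 1 (adjusted p = 1.67e-08 and 8.59e-09). MRPL10, which anchors MRPL12 to the ribosome, fell less, by 0.54 with mix 2 (adjusted p = 3.26e-06) and 0.26 with mix 1 (adjusted p = 0.00231).

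MRPL39 and MRPL37 are large subunit proteins without a bacterial counterpart. MRPL39 was at 9.79, 9.79, 9.77 and 9.82 log2 with mix 2, 9.86, 9.61, 9.73 and 9.75 with mix 1, and 10.89, 10.92, 10.86 and 10.88 with control siRNA. Its groups did not overlap with control, at 46.8% of the control level with mix 2 (adjusted p = 2.55e-10) and 45.1% with mix 1 (adjusted p = 1.82e-10). MRPL37 fell to 51.2% of control with mix 2 and 44.8% with mix 1 (adjusted p = 1.73e-08 and 2.57e-09). MRPL4, whose bacterial counterpart lines the exit tunnel, fell to 46.0% with mix 2 and 50.5% with mix 1 (adjusted p = 8.53e-09 and 3.98e-08).

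MRPL19, a protein at the face between the subunits, fell more with mix 1 than with mix 2 by its brightest probe set. It was at 10.01, 9.80, 10.02 and 10.04 log2 with mix 2, 9.47, 9.43, 9.20 and 9.16 with mix 1, and 10.83, 10.76, 10.62 and 10.63 with control siRNA. The 3 groups lay in separate ranges, at -0.74 (SE 0.08, adjusted p = 1.68e-06) with mix 2 and -1.40 (SE 0.08, adjusted p = 1.77e-09) with mix 1. A dimmer probe set of MRPL19 (232071_at) gave the opposite order, with -1.75 for mix 2 (adjusted p = 1.71e-06) and -0.37 for mix 1, which did not pass (adjusted p = 0.15); p-values of single probe sets were adjusted over all 41091.

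Among the small subunit names, MRPS30 (a large subunit protein by structure) and MRPS9 had the lowest differences with mix 1 and in the mean of both mixes, and MRPS2 the lowest with mix 2. MRPS30 was at 9.96, 9.80, 10.03 and 9.84 log2 with mix 2, 9.42, 9.34, 9.16 and 9.31 with mix 1, and 10.69, 10.80, 10.70 and 10.72 with control siRNA. By this brightest probe set, mix 1 lay below mix 2 and mix 2 below control on every array. That left 56.6% of the control level with mix 2 (adjusted p = 5.84e-08) and 37.4% with mix 1 (adjusted p = 1.55e-10). The dimmer MRPS30 probe sets 222275_at and 227600_at did not pass with mix 2 (-0.085 and -0.23, adjusted p = 0.402 and 0.0969). Both fell with mix 1 (-0.56 and -1.57, adjusted p = 1.08e-05 and 5.83e-09). MRPS9, whose bacterial counterpart reaches toward the decoded codon, was at 8.95, 8.91, 8.99 and 8.62 with mix 2, 8.48, 8.34, 8.46 and 8.36 with mix 1, and 9.68, 9.78, 9.71 and 9.69 with control siRNA. The order of the groups was the same as for MRPS30, at 55.6% of control with mix 2 and 40.5% with mix 1 (adjusted p = 1.24e-07 and 1.15e-09).

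MRPS2, another small subunit protein with a bacterial counterpart, went the other way between the mixes. It was at 8.59, 8.44, 8.57 and 8.36 log2 with mix 2, 8.75, 8.79, 8.94 and 8.61 with mix 1, and 9.71, 9.77, 9.76 and 9.55 with control siRNA. It fell by 1.21 with mix 2 (SE 0.08, adjusted p = 4.1e-09) and by 0.93 with mix 1 (SE 0.08, adjusted p = 8.88e-08), with every knockdown array below every control array. Other falls of at least 2-fold were those of MRPS12 with mix 2 (-1.01, adjusted p = 2.79e-08), and of MRPS27 (-1.20), MRPS26 (-1.11) and MRPS17 (-1.06) with mix 1 (adjusted p of 1.15e-08 or less). These 4 were named after their values were seen.

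**Figure D3:**
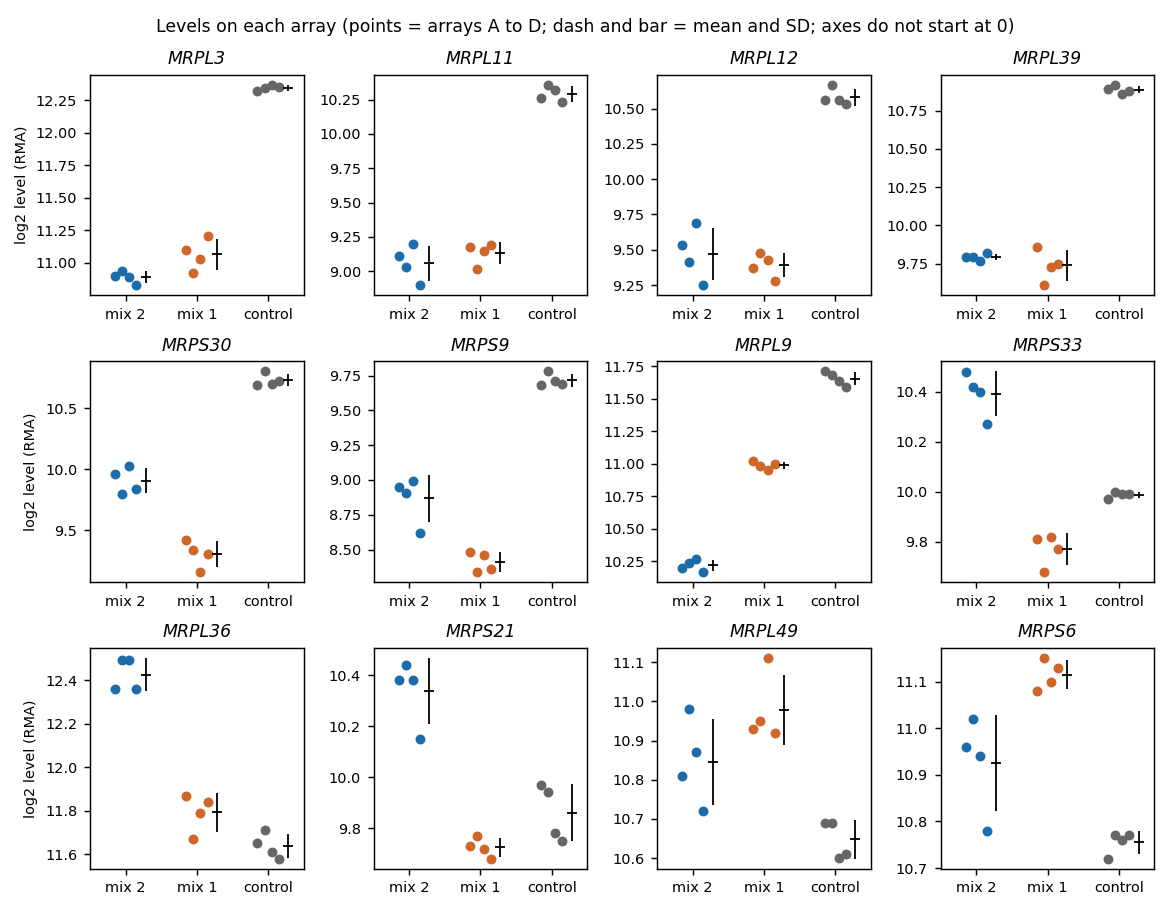
Log2 level on each array (points, A to D) with mean and SD for 12 members in mix 2, mix 1 and control; the axes do not start at 0. MRPL3, MRPL11, MRPL12, MRPL39, MRPS30, MRPS9 and MRPL9 lie below control in both mixes, MRPL49 and MRPS6 lie above it, and MRPS33 lies above it with mix 2 and below it with mix 1.

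The brightest and dimmest members show the range of levels on which these differences rest, as a description of the chosen probe sets. Mean levels over the 12 arrays ran from 7.34 log2 for MRPL38 to 12.01 for MRPL47. By their brightest probe sets, MRPL38 fell by 0.62 with mix 2 and 0.56 with mix 1 (adjusted p = 1.29e-06 and 4.86e-06), and MRPL44 fell with both mixes too (adjusted p = 0.0042 and 0.000664). A dimmer probe set of each did not pass with either mix. For MRPL38 (230726_at) it gave -0.01 and -0.06 (adjusted p = 0.954 and 0.678). For MRPL44 (218202_x_at) it gave -0.155 and -0.13 (adjusted p = 0.35 and 0.456). MRPL2 fell by 0.51 and 0.32 by its brightest probe set (adjusted p = 0.000421 and 0.013), but a slightly dimmer one (229884_s_at) gave -0.17 and -0.01, neither of which passed (adjusted p = 0.212 and 0.942). The mean of both MRPL2 probe sets did not pass with mix 1 (-0.17, adjusted p = 0.11). MRPL47 fell by 0.45 and 0.57 (adjusted p = 5.62e-06 and 4.87e-07). MRPS10, a bright small subunit member, had differences of -0.10 and -0.04 that did not pass (adjusted p = 0.115 and 0.581). Both of its dimmer probe sets passed with mix 1 (222522_x_at, -0.28, adjusted p = 0.00274, and 224247_s_at, -0.21, adjusted p = 0.0165), and neither with mix 2 (adjusted p = 0.1 and 0.51). Across the 75 members, level and difference correlated at 0.252 with mix 2 and 0.196 with mix 1 (Pearson), a description over probe sets that share the same arrays.

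A few members rose. MRPS6, a small subunit protein with a bacterial counterpart, was at 10.96, 11.02, 10.94 and 10.78 log2 with mix 2, 11.08, 11.15, 11.10 and 11.13 with mix 1, and 10.72, 10.77, 10.76 and 10.77 with control siRNA. All 8 knockdown arrays were above the controls, mix 2 replicate D by the least, with rises of 0.17 with mix 2 (adjusted p = 0.0159) and 0.36 with mix 1 (adjusted p = 5.15e-05). MRPL49, found only in mitochondria, was at 10.81, 10.98, 10.87 and 10.72 with mix 2, 10.93, 10.95, 11.11 and 10.92 with mix 1, and 10.69, 10.69, 10.60 and 10.61 with control siRNA. It rose by 0.20 with mix 2 (adjusted p = 0.0157) and 0.33 with mix 1 (adjusted p = 0.000434), again with no overlap with control. Without mix 2 replicate B the mix 2 rise passed for neither MRPS6 (0.14, adjusted p = 0.0561) nor MRPL49 (0.15, adjusted p = 0.0583).

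MRPL36, a small large-subunit protein with a bacterial counterpart, had the highest rise with mix 2. It was at 12.36, 12.49, 12.49 and 12.36 log2 with mix 2, 11.87, 11.67, 11.79 and 11.84 with mix 1, and 11.65, 11.71, 11.61 and 11.58 with control siRNA. The mix 2 arrays stood apart from all others, while mix 1 overlapped control. The rise was 0.79 with mix 2 (SE 0.06, adjusted p = 2.47e-08) and 0.15 with mix 1 (SE 0.06, adjusted p = 0.0367). The mix 1 call did not hold with the replicate letter as a block (adjusted p = 0.051), nor without control replicate A, C or D or without mix 1 replicate A, C or D in turn (adjusted p between 0.0552 and 0.105).

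MRPS33 and MRPS21, both of the small subunit, rose with mix 2, and MRPS33 fell with mix 1. MRPS33 was at 10.48, 10.42, 10.40 and 10.27 log2 with mix 2, 9.81, 9.68, 9.82 and 9.77 with mix 1, and 9.97, 10.00, 9.99 and 9.99 with control siRNA. It rose by 0.41 with mix 2 (adjusted p = 1.52e-05) and fell by 0.22 with mix 1 (adjusted p = 0.00352), and the 3 groups did not overlap. MRPS21 was at 10.38, 10.44, 10.38 and 10.15 with mix 2, 9.73, 9.77, 9.72 and 9.68 with mix 1, and 9.97, 9.94, 9.78 and 9.75 with control siRNA. Its rise with mix 2 was 0.48 (adjusted p = 3.11e-05), and its difference with mix 1, which overlapped control, was -0.14 and did not pass (adjusted p = 0.115).

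The 2 mixes were also set directly against each other, and the balance depended on the probe sets read. With mix 2 against mix 1, 33 of 75 members were higher and 7 lower, where 28.7% of all genes tested were higher and 25.0% lower. The median log2 difference was 0.12, against 0.03 over all genes tested. None of the 75 differed by 2-fold or more, where 2.63% of all genes tested were higher and 3.61% lower by that much. By symbol, 18 of 48 large subunit genes were higher and 4 lower (median 0.11), and 15 of 27 small subunit genes were higher and 3 lower (median 0.20). Leaving out 1 array at a time gave 26 (without mix 2 replicate C) to 42 (without mix 2 replicate D) members higher and 6 to 8 lower. Of all genes tested, 26.2% were higher without mix 2 replicate C and 30.8% without mix 2 replicate D. The share of all genes that were lower ran from 23.3% to 24.8% over these settings. Among the 30 members read by a probe set without an _s_at or _x_at suffix, 12 were higher and 6 lower. Among the 45 read by a probe set with such a suffix, which can also bind related transcripts, 21 were higher and 1 lower. When suffixed probe sets were left out for all genes, 42 members could be tested, and 13 were higher and 12 lower. These are 31.0% and 28.6% of the members, where 24.6% of all genes were higher and 24.6% lower in that setting.

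**Figure D4:**
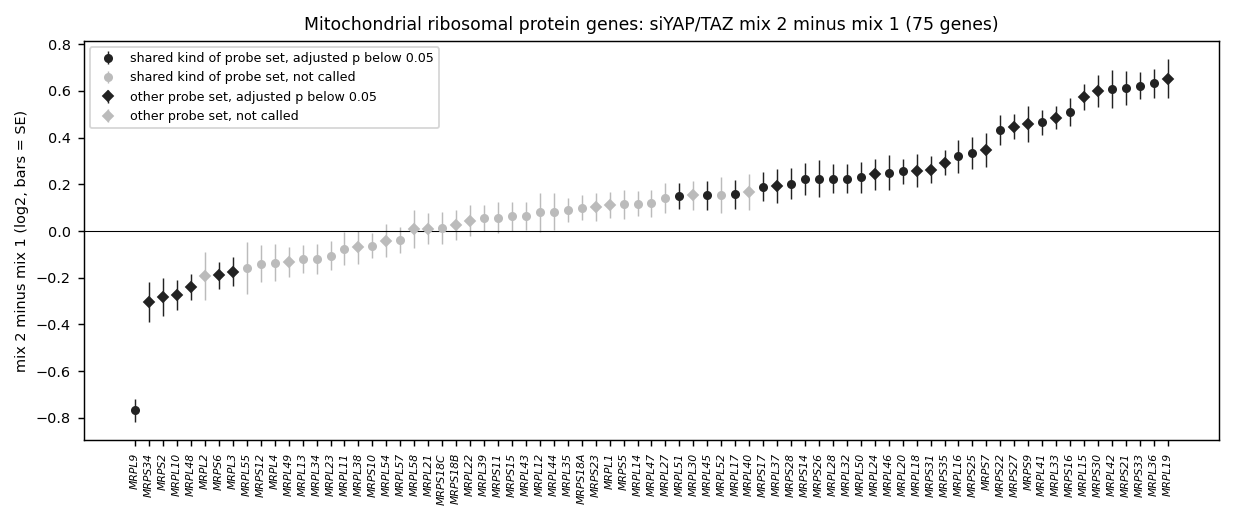
Log2 difference of mix 2 minus mix 1 for the 75 members in rank order, with SE bars; circles are probe sets with an _s_at or _x_at suffix, diamonds the others, and black marks an adjusted p below 0.05. MRPL9 stands lowest at -0.77 and MRPL19 highest at 0.65.

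MRPL9, a large subunit protein with a bacterial counterpart, was the member most lowered by mix 2 relative to mix 1. It was at 10.20, 10.24, 10.27 and 10.17 log2 with mix 2, 11.02, 10.98, 10.95 and 11.00 with mix 1, and 11.71, 11.68, 11.64 and 11.59 with control siRNA. The 3 groups were far apart and the replicates close together, at -0.77 for mix 2 minus mix 1 (SE 0.05, adjusted p = 1.22e-08). Against control it fell by 1.44 with mix 2 and 0.67 with mix 1 (adjusted p = 4.16e-12 and 2e-08). MRPS34 (-0.30), MRPS2 (-0.28), MRPL10 (-0.27) and MRPL48 (-0.24) were also lower with mix 2 than with mix 1 (adjusted p between 0.00231 and 0.00791), as was MRPS6 (-0.19, adjusted p = 0.0113), which rose against control in both.

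The members higher with mix 2 than with mix 1 were led by MRPL19 (0.65), MRPL36 (0.63), MRPS33 (0.62), MRPS21 (0.61), MRPL42 (0.61) and MRPS30 (0.60), each with an adjusted p of 2.08e-05 or less. MRPL42, found only in mitochondria, was at 10.99, 11.08, 11.09 and 10.92 log2 with mix 2, 10.44, 10.16, 10.48 and 10.57 with mix 1, and 10.74, 10.88, 10.90 and 10.93 with control siRNA. By this probe set its mix 1 arrays lay below control (-0.45, adjusted p = 0.000204), and mix 2 overlapped control (0.16, adjusted p = 0.106). A probe set only 0.03 log2 dimmer (222466_s_at) rose with mix 2 (0.36, adjusted p = 0.000178) and fell with mix 1 (-0.21, adjusted p = 0.0128). The mix 2 difference of MRPL42 passed with probe sets averaged (0.13, adjusted p = 0.029), quantile normalization (0.22, adjusted p = 0.034) and array weights (0.19, adjusted p = 0.0234). It also passed with the compared groups alone (adjusted p = 0.047) and without mix 1 replicate B (adjusted p = 0.0404), and it did not pass in the other settings. With probe sets averaged, the mix 1 fall of MRPL42 did not pass (-0.09, adjusted p = 0.126).

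Where a gene had further probe sets, those that passed against control mostly did so in the same direction as the brightest, and many did not pass. The 37 members with several probe sets had 65 further ones, of which 54 were above the filter value. Of these 54, 30 passed in the same direction as the brightest with mix 2, none in the opposite one, and 21 did not pass. With mix 1 the counts were 31, 1 and 19. The rest passed where the brightest did not. Between the mixes 8 passed in the same direction, 5 in the opposite one, and 33 did not pass. MRPS16, mutated in a known mitochondrial translation disorder, is an example: its brightest probe set (218046_s_at) gave -0.02 with mix 2 and -0.53 with mix 1, and 222499_at gave -0.98 and -0.48 (adjusted p = 7.52e-09 and 2.08e-05). MRPS14 and MRPL42 also had dimmer probe sets that reversed the order of the mixes, with mix 2 minus mix 1 at -0.56 for 203801_at (adjusted p = 0.00126) and -0.51 for 242289_at (adjusted p = 0.00314). The mix 1 difference of that MRPL42 probe set was 0.39 (adjusted p = 0.0135), the opposite sign to the brightest. MRPS25 (224015_s_at, -0.25, adjusted p = 0.0282) reversed between the mixes too. For MRPL20, a probe set at 4.36 log2, below the filter value (224803_s_at), gave 0.29 with mix 1 (adjusted p = 0.0193).

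Of 5 listed proteins of the mitochondrial ribosome that carry different names, 4 could be tested. Of these, 3 fell with mix 2 and 4 with mix 1, where 31.9% and 32.3% of all genes tested fell. DAP3, a small subunit protein also studied in cell death, had log2 differences of -0.33 with mix 2 and -0.52 with mix 1 (adjusted p = 4.61e-05 and 3.82e-07). GADD45GIP1, of the large subunit, fell by 0.59 and 0.64 (adjusted p = 5.37e-06 and 2.54e-06). PTCD3 fell by 0.28 and 0.46 (adjusted p = 0.00119 and 1.74e-05), but the mean of its probe sets gave -0.06 and -0.01, which did not pass (adjusted p = 0.397 and 0.906). CHCHD1 had 0.09 with mix 2 (adjusted p = 0.184) and -0.16 with mix 1 (adjusted p = 0.0204), and the mix 1 call was lost without control replicate B (adjusted p = 0.0576) or mix 1 replicate B (adjusted p = 0.0692).

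Genes that build and serve the mitochondrial ribosome were described from lists, beside the counts over all genes given above. Of 26 assembly factors, 21 fell and 4 rose with mix 2, and 21 fell and 2 rose with mix 1. The lowest were MTERF3, a regulator of mitochondrial transcription and ribosome assembly (-1.11 and -1.34), and MRM3, which methylates the large mitochondrial ribosomal RNA (-0.88 and -1.05), each with an adjusted p of 2.94e-08 or less. The RNA-processing enzyme YBEY rose by 0.51 and 0.43 (adjusted p = 3.11e-05 and 0.00016). TRUB2, a pseudouridine synthase, rose by 0.40 and 0.20 (adjusted p = 0.000162 and 0.0207), and its mix 1 rise did not pass without control replicate A (adjusted p = 0.0659).

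Of 14 translation factors, 9 fell and 2 rose with mix 2, and 11 fell and 2 rose with mix 1. MRRF, which recycles the ribosome, fell by 1.04 and 1.02 (adjusted p = 1.29e-09 and 1.72e-09), and the elongation factor GFM1 by 0.48 and 1.18 (adjusted p = 4.04e-05 and 2.84e-09). The initiation factor MTIF3 rose by 1.04 and 0.69 (adjusted p = 3.35e-09 and 3.67e-07). The release factor MTRF1 rose by 0.35 with mix 2 (adjusted p = 0.00143) and had 0.19 with mix 1 (adjusted p = 0.0513).

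Of 15 mitochondrial tRNA synthetases, 10 fell and 3 rose with mix 2, and 11 fell and none rose with mix 1. MARS2 (-1.98 and -1.64) and NARS2 (-1.91 and -1.38), which charge the methionine and asparagine tRNAs, had the lowest differences (adjusted p of 8.14e-10 or less). RARS2, for arginine, rose by 0.28 with mix 2 (adjusted p = 0.00215) and had 0.07 with mix 1 (adjusted p = 0.354). Of 12 genes of mitochondrial DNA expression and maintenance, 11 fell with mix 2 and 12 with mix 1. PNPT1, an RNA-degrading phosphorylase, fell by 1.43 and 1.86, and TFAM, which packs and transcribes mitochondrial DNA, by 1.00 and 1.91 (adjusted p of 2.42e-09 or less). When suffixed probe sets were left out, TFAM did not differ past the threshold between the mixes (mix 2 minus mix 1 of 0.07, adjusted p = 0.713).

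Of 9 regulators of mitochondrial biogenesis, 6 fell and 1 rose with mix 2, and 6 fell and 3 rose with mix 1. The coactivator PPRC1 fell by 1.66 and 1.33 and the transcription factor MYC by 0.94 and 1.27 (adjusted p of 4.82e-08 or less). PPARGC1A, a coactivator known to drive mitochondrial biogenesis, rose by 1.58 and 2.21 (adjusted p = 1.68e-10 and 7.34e-12) with a control level of 6.03 log2, close to the filter value.

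The cytosolic ribosome and the respiratory chain, which the mitochondrial ribosome serves, gave smaller medians. Of 60 cytosolic ribosomal protein genes, 35 fell and 3 rose with mix 2 (median -0.16 log2), and 45 fell and 2 rose with mix 1 (median -0.23). Of 68 nuclear-encoded subunits of the oxidative phosphorylation complexes, 16 fell and 27 rose with mix 2 (median 0.10), and 28 fell and 8 rose with mix 1 (median -0.04). The mitochondrial ribosomal protein medians were -0.50 and -0.56 with the same arrays. Over all genes tested, 31.9% fell and 36.7% rose with mix 2, and 32.3% fell and 34.8% rose with mix 1. The difference between the lists was not tested.

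**Figure D5:**
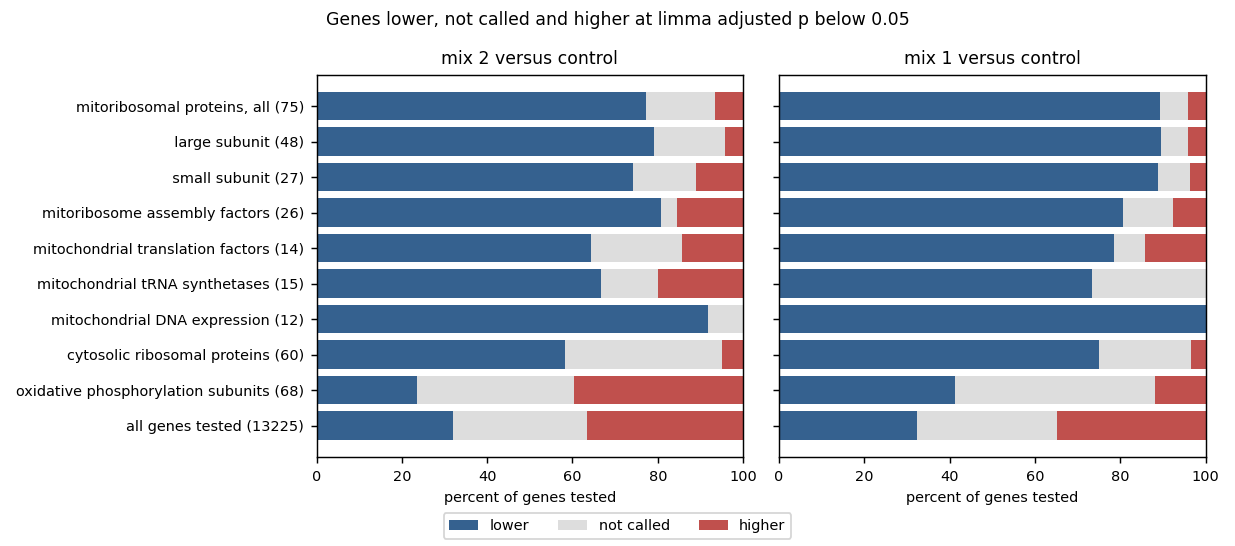
Share of genes that fell, did not pass or rose with mix 2 (left) and mix 1 (right) against control, in percent of the genes tested in each list, with the number of genes in brackets. The mitochondrial ribosomal proteins fell in 77.3% with mix 2 and 89.3% with mix 1, against 31.9% and 32.3% of all genes tested.

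RefSeq promoter windows were available for 67 of the 75 members, 83 windows in all, and were set beside 22199 windows of protein-coding genes. The ETS family motif CCGGAAG was found on either strand in 38.6% of the members' windows and in 12.8% of all windows. The YY1 motif ATGGCGG, which can hold the start codon of a gene, was in 28.9% against 7.0%. For the E-box CACGTG, bound by MYC among others, the shares were 10.8% and 8.3%, and for the NRF1 motif 12% and 7.4%. The TEAD motif GGAATG was in 14.5% of the members' windows and 12.2% of all windows. Median log2 differences in the mean of both mixes against control, for members with and without a match, were -0.40 and -0.62 for the ETS family, -0.59 and -0.44 for YY1 and -0.60 and -0.52 for TEAD. They were -0.40 and -0.54 for the E-box and for NRF1 alike. These splits were not tested and went in both directions.

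Among the printed windows, MRPL3 holds an ETS family match that begins 32 bases before the start. MRPL37 holds an E-box, a TEAD match and, past the start, a YY1 match, and MRPS9 an NRF1 and a YY1 match. MRPL36, the member that rose most with mix 2, also holds NRF1, E-box and YY1 matches. None of the 5 motifs contains another, and a match describes the letters of the window only.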

How the data were processed

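RNA from 12 cultures was measured on 1 array each, in 3 groups of 4. The authors deposited a table of log2 expression values, computed by RMA, as stated per the submitters' processing notes. Which software and options were used is not given in the sources used here. RMA in its usual form gives all arrays 1 distribution, so a shift of all genes together would not be seen. Of 54675 probe sets, 41097 had exactly 1 gene symbol in GEO's platform annotation; without controls, 41091 were used. For 41037 of them the symbol was brought up to date by gene ID from the RefSeq table of GRCh38.p14. Each gene was read by its brightest probe set, among those with a mean above the 40th percentile (5.46 log2), which left 13225 genes. The 75 members had 140 probe sets. An antisense RNA and a pseudogene that matched the name pattern were left out, as were 3 probe sets shared with another symbol.

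Differences were tested with limma 3.58.1 in R 4.3.3 (lmFit on 3 group means over 12 arrays, 9 residual degrees of freedom, default eBayes), with two-sided p-values adjusted by Benjamini-Hochberg over all 13225 genes at a threshold of 0.05. The script was tested on simulated data. The number of arrays limits the precision, and replicates measure the spread between cultures handled in parallel. The members and lists were chosen with earlier results of these data known.

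Named genes were YAP1, WWTR1 and MYC, up to 10 members at each end of the mean of both mixes whose 8 knockdown arrays lay outside the control range, and 6 at each end between the mixes whose arrays did not overlap. The 3 brightest and 3 dimmest members, members with opposite signs, probe sets of the opposite sign, differently named mitoribosomal proteins and up to 2 genes per end of each list were also named. Same-letter arrays were tested for pairing through correlations of their deviations from group means. The correlations were 0.370, 0.251, 0.409 and 0.340 between mix 1 and control, all above 0.1, so the letters were treated as a possible pairing that comes from the values. Arrays of different letters ran from -0.428 (mix 1 A with control C) to 0.374 (mix 1 B with control A). Mix 1 D with control C gave 0.286, so same letters did not stand apart from all others. Same-letter correlations were 0.119, 0.0338, 0.0481 and 0.212 between mix 2 and control, and 0.273, -0.0853, 0.202 and 0.191 between mix 2 and mix 1. Alternatives were other filters, normalizations, probe set rules and model settings, the replicate block, and each array left out in turn.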

Additional observations from a re-analysis of the deposited data

Results flagged for a closer look

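Among the 87 groups of 4 arrays checked, 5 held an array far from the other 3 (Dixon's test at its 95% critical value), and chance gives about 5% of groups. MRPL19 was at 9.80 log2 on mix 2 replicate B, against 10.01, 10.02 and 10.04 on the others. Mix 2 replicate D had the low value for MRPL4 (8.27, against 8.47, 8.49 and 8.51) and for MRPL44 (8.43, against 8.70, 8.71 and 8.75). MRPL49 was at 11.11 on mix 1 replicate C, against 10.92, 10.93 and 10.95. MRPL20 was at 11.63 on control replicate A, against 11.70, 11.70 and 11.71.

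MRPS33 rose with mix 2 and fell with mix 1, and the difference between the mixes was 0.62 on the log2 scale (limma adjusted p = 3.9e-07). MRPS33 was picked for its opposite signs against the same control arrays, so this p-value is not separate evidence of a difference.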

How the results depend on the processing

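Of 204 single-gene results, 160 kept their direction and side of the threshold under every one of the 11 alternatives in which they could be tested and with each of the 12 arrays left out. Without suffixed probe sets, 42 members could be tested. Of these, 33 fell and 2 rose with mix 2, where 29.9% of all genes in that setting fell and 32.6% rose. With mix 1, 34 fell and 7.14% rose, where 28.9% of all genes fell and 32.1% rose. In the mean of both, 35 fell and 2 rose, where 30.6% of all genes fell and 33.2% rose. Between the mixes 13 were higher and 12 lower, where 24.6% of all genes were higher and 24.6% lower. The small subunit median with mix 1 was then -0.53, where the main value was -0.63. The medians of mix 2 minus mix 1 were 0.0275 (large) and 0.04 (small), where the main values were 0.11 and 0.20. With probe sets averaged per gene, 11 members were lower between the mixes, where 25.7% of all genes were lower. In that setting the medians with mix 2 were -0.43 (large) and -0.44 (small). The small subunit median with mix 1 was then -0.55 and that of mix 2 minus mix 1 was 0.075. Array weights gave -0.44 for small subunit genes with mix 2.

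Mix 2 minus mix 1 reversed with the mean of the probe sets for MRPL19 (-0.28, adjusted p = 0.0382), MRPS14 (-0.17, adjusted p = 0.0757) and PTCD3 (-0.0487, adjusted p = 0.505). It reversed without suffixed probe sets for MRPL42 (-0.51, adjusted p = 0.00181), MRPS14 (-0.56, adjusted p = 0.000708), MRPS16 (-0.49, adjusted p = 7.69e-06) and DAP3 (-0.07, adjusted p = 0.41), as did mix 1 against control for MRPL42 (0.39, adjusted p = 0.00869) and MRPS14 (0.15, adjusted p = 0.275). The cause was not tested.

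With 1 array left out in turn, members that rose with mix 2 numbered 3 to 6 (3 without mix 2 replicate B), where 35.1% to 37.3% of all genes rose. Members higher in mix 2 than in mix 1 numbered 26 to 42, where 26.2% to 30.8% of all genes were higher. Small subunit medians ranged from -0.51 to -0.45 with mix 2 and from -0.65 to -0.58 with mix 1, and that of mix 2 minus mix 1 from 0.16 to 0.24. With the replicate block, 68 members fell and 2 rose with mix 1, where the main values were 67 and 3. Of all genes, 33.5% fell and 36.0% rose with mix 1 in that setting. Among single genes the block ended the MRPL36 call with mix 1 (adjusted p = 0.051) and added MRPL2 between the mixes (-0.19, adjusted p = 0.0434), and it changed no other of the 204 single-gene calls. MRPL36 with mix 1 also missed the threshold without a filter (adjusted p = 0.0683) and with arrays centred on their median (adjusted p = 0.088). All 75 members had a mean above the filter value, and background was not measured separately.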
